A study of Rattus norvegicus with 6 samples.

Results

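Havcr1, Lcn2, Spp1 and Clu are transcripts used as markers of injury to the kidney tubule, and they were read here as 4 gene models of 28787 in a table of read counts from rat kidney. They were chosen by identifier: Havcr1 is ENSRNOG00000007243, Lcn2 is ENSRNOG00000013973, Spp1 is ENSRNOG00000043451 and Clu is ENSRNOG00000016460. The names came with that list of identifiers. The deposited tables name no genes, and the RefSeq table of rat genes used here pairs 0 of its genes with an Ensembl identifier, so the names could not be checked against either. All 4 models were found, and all 4 passed the filter on low counts that left 16324 models for testing.

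The data are RNA-seq libraries of kidneys from male rats that were 7 weeks old. One group was the Dahl Salt Sensitive (Dahl SS) strain, an inbred line that becomes hypertensive on salt, with 3 libraries. The other was labelled Resp18 mutant, also with 3 libraries. Resp18 encodes a protein of neuroendocrine cells, and the labels give neither the allele nor the strain background of the mutant. Rats of both groups had been fed a diet with 2% salt from the age of 6 weeks, for 1 week, so no comparison with a low-salt kidney can be made. Whole-kidney RNA mixes all segments of the nephron, and fewer cells of a type cannot be told apart from less RNA per cell. Nothing in the labels says that libraries came from separate animals, so p-values measure the spread between libraries. The Resp18 transcript and the markers that define kidney cell types were not analysed here, because their identifiers are not paired with names.

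The 4 genes report on injury in different ways. Havcr1 encodes kidney injury molecule 1 (KIM-1), a membrane receptor that is scarce in the healthy proximal tubule, is made in large amounts after injury and lets tubule cells engulf dying neighbours. Lcn2 encodes neutrophil gelatinase-associated lipocalin (NGAL), a secreted protein that binds the siderophores carrying iron, made by the injured distal nephron and also by neutrophils. Spp1 encodes osteopontin, a secreted phosphoprotein that binds integrins and calcium crystals and is abundant in the normal loop of Henle and distal tubule. Clu encodes clusterin, a secreted chaperone that coats misfolded proteins and rises in damaged tubules. KIM-1, NGAL, osteopontin and clusterin are all measured in urine as signs of kidney damage in the rat.

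Stretches upstream of 3 of the 4 genes are shown so that a reader can see whether the starts of these genes look alike. The pairs of members that passed by Pearson's r below all include Clu, which has no stretch here. Pairs among the genes shown passed by rank only, and not with the length trend of the libraries removed. RefSeq's promoter table for rat (build GRCr8, another build than that of the count tables) held Havcr1, Lcn2 and Spp1. The 250 bases before the start that this table uses are printed 5′ to 3′ on the strand of the gene, and other RefSeq transcripts of each gene begin further upstream. Capitals mark matches to 5 motifs searched on both strands: NF-kB (GGGRNNNNCC), AP-1 (TGANTCA), STAT (TTCNNNGAA), C/EBP (TTGCNNAA) and the TATA box (TATAAA). In these patterns N is any base and R is A or G. The NF-kB form is a loose one, and it was settled after matches to other forms had been seen.
Havcr1 (chr10:31629528-31629777, plus strand): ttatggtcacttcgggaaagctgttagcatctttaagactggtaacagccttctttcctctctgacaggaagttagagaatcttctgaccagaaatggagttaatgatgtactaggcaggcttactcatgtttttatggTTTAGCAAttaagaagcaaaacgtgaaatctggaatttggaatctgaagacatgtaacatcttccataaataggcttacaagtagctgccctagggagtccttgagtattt
Lcn2 (chr3:36081781-36082030, minus strand): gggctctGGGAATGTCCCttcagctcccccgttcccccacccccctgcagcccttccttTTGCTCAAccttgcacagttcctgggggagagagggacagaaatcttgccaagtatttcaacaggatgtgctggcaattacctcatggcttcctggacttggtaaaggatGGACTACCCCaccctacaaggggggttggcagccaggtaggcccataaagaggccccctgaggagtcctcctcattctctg
Spp1 (chr14:5619805-5620054, minus strand): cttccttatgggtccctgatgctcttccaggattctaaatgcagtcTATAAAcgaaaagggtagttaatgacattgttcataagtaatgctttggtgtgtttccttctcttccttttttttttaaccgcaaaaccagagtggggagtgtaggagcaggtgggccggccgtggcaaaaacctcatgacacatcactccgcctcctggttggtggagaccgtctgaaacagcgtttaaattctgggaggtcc

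No motif was found in all 3 stretches. Lcn2 held GGGAATGTCC, an NF-kB match from 243 to 234 bases before the start. The same place matches once more on the other strand, shifted by 1 base, so the capitals run on without a break. A further NF-kB match on the opposite strand, GGACTACCCC, lay 81 to 72 bases before the start. Lcn2 also held a C/EBP match, TTGCTCAA, 191 to 184 bases before the start. Havcr1 held a C/EBP match on the opposite strand, TTTAGCAA, from 111 to 104 bases before the start. Spp1 held only TATAAA, 204 to 199 bases before the start. No stretch held the AP-1 or STAT letters. Over the 33469 promoters of the table, 26.4% held the NF-kB motif in the same 250 bases, 6.34% the AP-1 letters, 7.67% the STAT letters, 9.22% the C/EBP letters and 12.9% the TATA letters. A match is only a run of letters, and the RNA data do not show whether a factor binds there.

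The 4 transcripts stood at very different levels in these kidneys. Levels of different genes are compared here in FPKM (reads scaled to the length of the model and to the counted reads of the library), with model lengths of 2514 bases for Havcr1, 936 for Lcn2, 1452 for Spp1 and 1685 for Clu. Osteopontin's transcript was among the most abundant in the kidney: Spp1 averaged 618.5 FPKM over the 6 libraries and was number 63 from the top among 16324 tested models. Clu averaged 75.9 FPKM, above 93.0% of tested models. Lcn2 and Havcr1 were low, at 5.25 and 2.37 FPKM, where the median tested model had 8.62 FPKM. Havcr1 lay above 24.8% of tested models and Lcn2 above 38.6%. The order Spp1, Clu, Lcn2, Havcr1 held without overlap between neighbours: the lowest library of Lcn2, at 4.31 FPKM, was above the highest of Havcr1, at 3.18 FPKM. In the Dahl SS kidneys the levels were 660 ± 68.3, 74.7 ± 9.55, 5.07 ± 0.717 and 2.41 ± 1.04 FPKM in that order, and in the mutant kidneys 577 ± 116, 77.1 ± 9.33, 5.44 ± 1.11 and 2.33 ± 0.731 FPKM (SD, n = 3).

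The comparison between groups asks whether these markers differ between kidneys of Resp18 mutant and Dahl SS rats on the salt diet. None of the 4 passed a test of difference between the groups. Each had overlapping groups, an edgeR adjusted p of at least 0.662, and a fold change between 0.883 and 1.09. The count of members past edgeR's quasi-likelihood test was 0 of 4 at a false discovery rate of 0.05, where 0.0123% of tested models passed. It was also 0 of 4 at an unadjusted edgeR p under 0.05, where 10.8% passed. With DESeq2 it was 0 of 4, beside 0.684% of the models given an adjusted p, and with limma-voom 0 of 4, beside 0.00613%. The groups overlapped in all 4 members, while 17.2% of tested models had groups without overlap. The median log2 fold change of the members was 0.025, and that of all tested models 0.0051.

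Values between libraries are given below in CPM (counts per 1000000 reads, on library sizes scaled by TMM). Read counts are given library by library for Havcr1 and Lcn2, and as a total over all libraries for Spp1 and Clu. For Havcr1, the Dahl SS libraries 1 to 3 stood at 3.01, 8.10 and 7.05 CPM, from 70, 116 and 115 reads. The mutant libraries 1 to 3 stood at 8.19, 4.42 and 5.12 CPM, from 174, 92 and 70 reads. The lowest library was a control and the highest a mutant, with the next highest, at almost the same level, a control again. Controls averaged 6.05 ± 2.69 CPM and mutants 5.91 ± 2.01 CPM (SD, n = 3), with a two-sided exact permutation p of 1.0. The fold change was 0.994 with a 95% interval from 0.557 to 1.77 (edgeR adjusted p = 0.995). This is the widest interval of the 4: it leaves room for a KIM-1 transcript 1.77-fold higher or at 0.557 of the control level, and it lies inside 2-fold in either direction by a small margin that did not hold in every setting.

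Of the 4 estimates, that of Havcr1 moved most when single libraries were left out. Without Dahl SS replicate 1, its log2 fold change went from -0.0086 to -0.35 (edgeR adjusted p = 0.833), and without Dahl SS replicate 2 to 0.26 (edgeR adjusted p = 0.762). Dahl SS replicate 1 and mutant replicate 1 also stand apart across the whole table. The Spearman correlation of a library's deviation with model length was 0.369 in the first and -0.373 in the second, against -0.170 to 0.0394 in the other libraries. Without both of them the log2 fold change of Havcr1 was -0.67 (95% interval -1.16 to -0.18, edgeR adjusted p = 0.400). Without mutant replicate 1 alone it was -0.32 (95% interval -1.21 to 0.56). Dahl SS replicate 1 was also the lowest control, and mutant replicate 1 the highest mutant library, in all 4 members. Leaving both out therefore lowers each estimate. With the fitted trend on length removed and all libraries kept, the log2 fold change of Havcr1 was -0.0094 (95% interval -0.84 to 0.83). The interval of Havcr1 stayed inside 2-fold in 8 of 15 edgeR alternatives and passed it in the others, among them each single library left out except Dahl SS replicate 1, so a 2-fold difference in KIM-1 transcript is not firmly bounded by these libraries.

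Lcn2 stood at 4.04, 5.52 and 4.66 CPM in Dahl SS libraries 1 to 3, from 94, 79 and 76 reads. In mutant libraries 1 to 3 it stood at 6.31, 4.03 and 5.04 CPM, from 134, 84 and 69 reads. The mutant libraries thus held both the highest and the lowest value, and the controls lay between. The means were 4.74 ± 0.743 and 5.13 ± 1.14 CPM for controls and mutants (SD, n = 3; exact permutation p = 0.7). The mutant level was 1.09 times that of Dahl SS, with a 95% interval from 0.769 to 1.54 (edgeR adjusted p = 0.843). The log2 fold change was 0.12, and it was -0.055 without mutant replicate 1 and -0.17 without that library and Dahl SS replicate 1. Lcn2 is also a neutrophil gene, and the neutrophil markers that would show whether blood cells differ between libraries were not analysed here for lack of names.

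Spp1 was counted most deeply, with 97559 reads over the 6 libraries. It stood at 836, 1062 and 969 CPM in Dahl SS libraries 1 to 3. In mutant libraries 1 to 3 it stood at 1023, 657 and 852 CPM. Mutant replicate 2 was the lowest library, and mutant replicate 1 lay above all controls but Dahl SS replicate 2. Controls averaged 956 ± 113 CPM and mutants 844 ± 183 CPM (SD, n = 3; exact permutation p = 0.5). The fold change was 0.883 with a 95% interval from 0.691 to 1.13 (edgeR adjusted p = 0.662). Its log2 fold change of -0.18 became -0.022 without mutant replicate 2, -0.33 without mutant replicate 1, -0.091 without Dahl SS replicate 2 and -0.43 without replicate 1 of both groups, and none of these values passed the test after adjustment. The 95% interval without mutant replicate 1 ran from -0.66 to -0.0097, and that without replicate 1 of both groups from -0.69 to -0.17. With the fitted trend on length removed and all libraries kept, the log2 fold change of Spp1 was -0.23 (95% interval -0.52 to 0.058).

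Clu stood at 106, 142 and 128 CPM in Dahl SS libraries 1 to 3 and rested on 13902 reads over the 6 libraries. In mutant libraries 1 to 3 it stood at 149, 113 and 131 CPM. The groups covered nearly the same range, with the lowest value in a control and the highest in a mutant. Controls averaged 126 ± 17.9 CPM and mutants 131 ± 17.9 CPM (SD, n = 3; exact permutation p = 0.7). The fold change was 1.04 with a 95% interval from 0.848 to 1.28 (edgeR adjusted p = 0.877), the narrowest interval of the 4. Its log2 fold change of 0.059 was -0.048 without Dahl SS replicate 1, -0.038 without mutant replicate 1 and -0.15 without both.

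**Figure D1:**
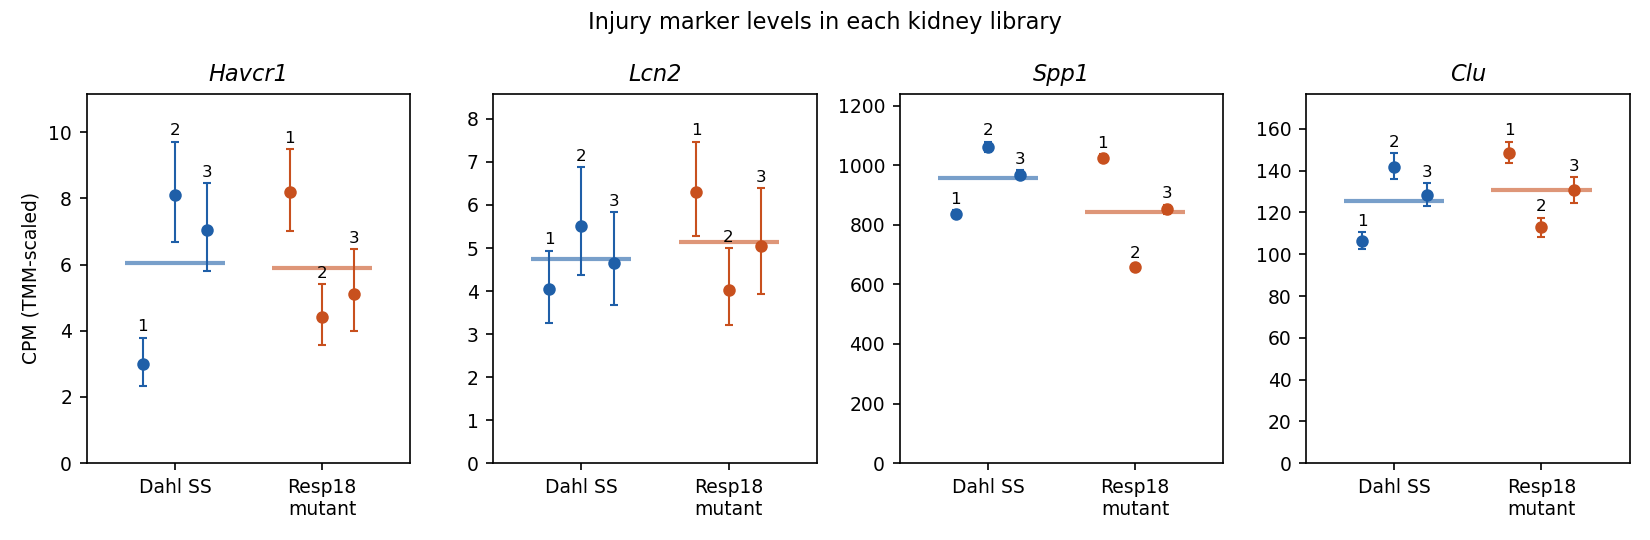
CPM on TMM-scaled libraries (vertical axes from 0, a separate scale for each gene) of Havcr1, Lcn2, Spp1 and Clu in the 3 Dahl SS (blue) and 3 Resp18 mutant (orange) libraries, numbered by replicate. Error bars are exact 95% Poisson limits of the read count, which cover counting error only, and horizontal lines are group means; the groups overlap in each gene, and Dahl SS replicate 1 and mutant replicate 2 are the lowest libraries in all 4.

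**Figure D2:**
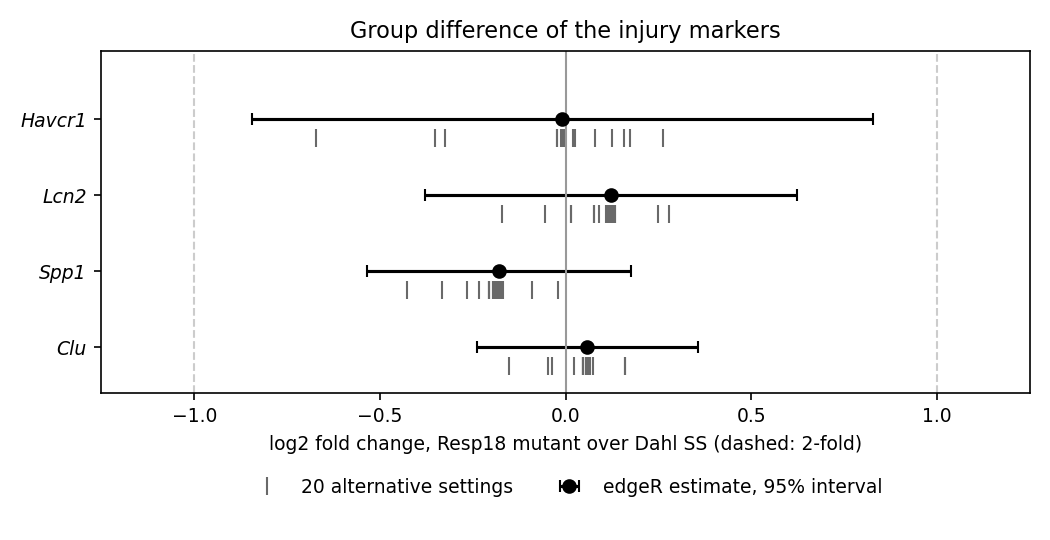
Log2 fold change of Resp18 mutant over Dahl SS (horizontal axis) for each gene, with the edgeR estimate and its 95% interval (black) and the values under 20 alternative settings (grey ticks). Each interval holds 0 and lies inside a 2-fold change in either direction (dashed lines), and the interval of Havcr1 is the widest, from -0.84 to 0.83.

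The fold change intervals of all 4 genes lay inside 2-fold in either direction, as they did for 83.8% of tested models. Those of Spp1 and Clu also lay inside 1.5-fold, as for 58.8% of tested models, and those of Havcr1 and Lcn2 did not. Over 15 edgeR alternatives, the interval stayed inside 2-fold in 15 for Lcn2, Spp1 and Clu and in 8 for Havcr1. It stayed inside 1.5-fold in 15 for Clu and in 9 for Spp1, whose interval passed that limit without mutant replicate 1, among others.

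The markers spread more widely among libraries of one group than their group estimates lay apart. Single libraries vary more than group means, so this comparison does not set the markers apart. Its share over all tested models was not counted. Havcr1 ranged 2.69-fold within the Dahl SS libraries and 1.85-fold within the mutant libraries. The ranges were 1.37-fold and 1.56-fold for Lcn2, 1.27-fold and 1.56-fold for Spp1 and 1.33-fold and 1.32-fold for Clu. The within-group standard deviation of Havcr1 was 0.63 on the log2 scale, larger than in 96.0% of tested models, whose median was 0.18. The corresponding values were 0.27 for Lcn2, 0.26 for Spp1 and 0.20 for Clu, larger than in 72.2%, 69.7% and 57.4% of tested models. Part of such a spread is the counting of reads. For Havcr1 the coefficient of variation over the 6 libraries was 35.5%, where counting alone gives 10.2%, and for Lcn2 it was 18.0% against 10.8%. For Spp1 it was 16.6% against 0.801%, and for Clu 12.7% against 2.11%. The lowest Havcr1 library, Dahl SS replicate 1, had exact 95% Poisson limits of 2.34 to 3.80 CPM, below those of Dahl SS replicate 2, at 6.69 to 9.71 CPM.

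The libraries stood in the same order within each group for all 4 markers. Among the Dahl SS kidneys, replicate 1 was lowest, replicate 3 in the middle and replicate 2 highest in 4 of 4. Among the mutant kidneys, replicate 2 was lowest, replicate 3 in the middle and replicate 1 highest in 4 of 4. Of all 16324 tested models, 8.59% had both orders. Over the 6 libraries together, Dahl SS replicate 1 and mutant replicate 2 were the lowest pair and Dahl SS replicate 2 and mutant replicate 1 the highest pair in 4 of 4 members, and in 3.30% of tested models. As a share of its own mean, Havcr1 was at 50.3% in Dahl SS replicate 1 and 73.8% in mutant replicate 2, and at 135% and 137% in Dahl SS replicate 2 and mutant replicate 1. Clu ran the same way over a smaller range, at 83.1% and 88.1% in the low pair and 111% and 116% in the high pair. The orders and pairs were read from the values of these 4 members before the other models were counted. The members therefore match them partly by construction, and the shares of all models are a description, not a test. The members were chosen together as markers of one process, and they are not independent replicates of this pattern.

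**Figure D3:**
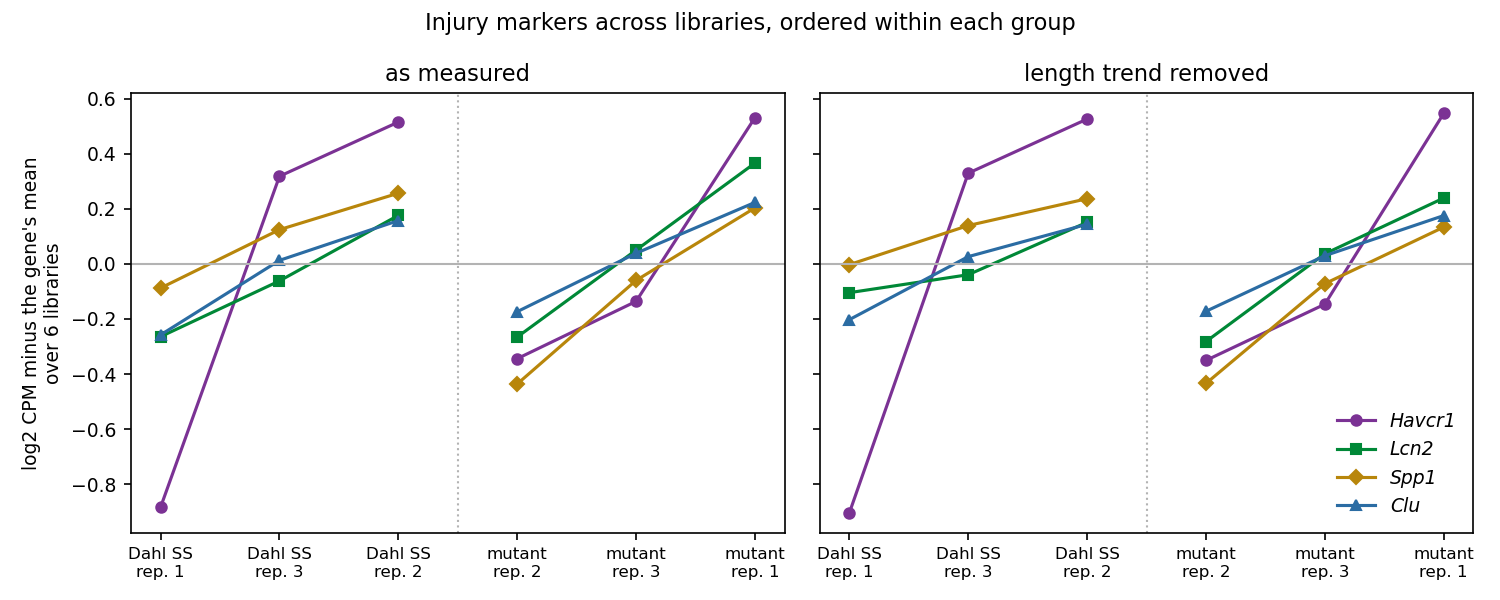
Log2 CPM of each gene minus its mean over the 6 libraries (vertical axis), with libraries placed by the order the markers share within each group (Dahl SS left and mutant right of the dotted line), as measured and with each library's length trend removed. In both panels every line climbs from left to right within both groups, and Havcr1 spans the widest range.

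The pairs of members were then compared across libraries by the correlation of log2 CPM (n = 6), with exact two-sided permutation p-values adjusted by Benjamini-Hochberg over the 6 pairs. Clu went most closely with Lcn2 (Pearson r = 0.969, exact permutation p = 0.00556, adjusted 0.025; Spearman correlation = 0.943, exact permutation p = 0.0167, adjusted 0.04). Clu and Havcr1 were nearly as close (r = 0.934, exact permutation p = 0.00833, adjusted 0.025; Spearman correlation = 0.943, exact permutation p = 0.0167, adjusted 0.04). These 2 pairs passed by Pearson's r. Havcr1 and Lcn2 had an r of 0.835 (exact permutation p = 0.0389, adjusted 0.0778) and a rank correlation of 0.886 (exact permutation p = 0.0333, adjusted 0.04).

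Osteopontin went less closely with the others by Pearson's r, and no pair with Spp1 passed by that measure. Its r was 0.780 with Lcn2 (exact permutation p = 0.0528, adjusted 0.0792), 0.775 with Clu (exact permutation p = 0.0806, adjusted 0.0967) and 0.724 with Havcr1 (exact permutation p = 0.111, adjusted 0.111). By rank the values were 0.886 with Lcn2 and with Havcr1 (exact permutation p = 0.0333, adjusted 0.04 for each) and 0.829 with Clu (exact permutation p = 0.0583, adjusted 0.0583). The r of Spp1 was not tested against those of the other pairs. Without the 2 libraries farthest from the median of the first gene of a pair, r was 0.974 for Lcn2 and Clu, 0.838 for Havcr1 and Clu, 0.738 for Havcr1 and Lcn2, 0.949 for Havcr1 and Spp1, 0.698 for Lcn2 and Spp1 and 0.791 for Spp1 and Clu. All pairs were positive on the remaining 4 libraries. On log2(FPKM + 1) the same step gave 0.446 for Havcr1 and Lcn2 and 0.571 for Havcr1 and Clu, and with the length trend removed it gave 0.492 for Spp1 and Clu. With any 1 library left out, r stayed between 0.962 and 0.982 for Lcn2 and Clu and between 0.878 and 0.963 for Havcr1 and Clu, and was 0.645 or higher in the other pairs. For Spp1 it depended more on single libraries. With Havcr1 it ran from 0.645 without Dahl SS replicate 2 to 0.949 without Dahl SS replicate 1. With Clu the r of Spp1 ran from 0.720 to 0.913, and with Lcn2 from 0.738 to 0.839.

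**Figure D4:**
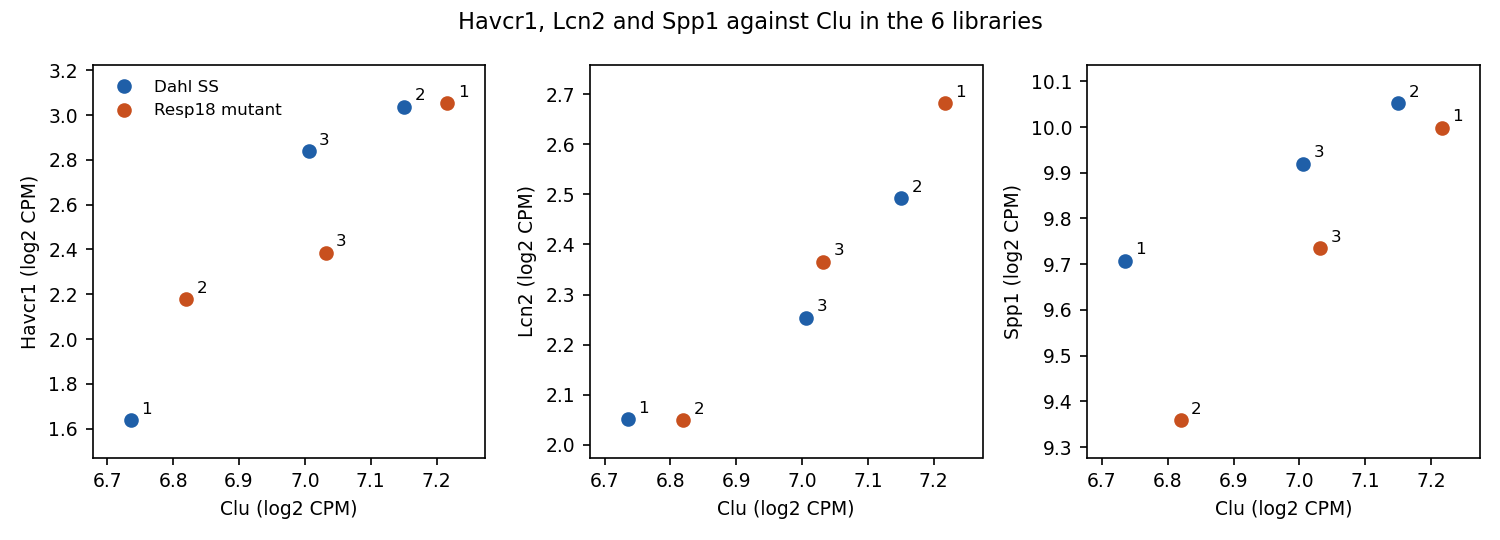
Log2 CPM of Havcr1, Lcn2 and Spp1 (vertical axes) against log2 CPM of Clu (horizontal axes), with 1 point for each library, numbered by replicate, in Dahl SS (blue) and Resp18 mutant (orange) kidneys. Havcr1 and Lcn2 climb with Clu across both groups (r = 0.934 and 0.969), and for Spp1 (r = 0.775) mutant replicate 2 lies lowest.

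These values can be set beside those of the other models in the same 6 libraries. Among 12375 other models with a mean log2 CPM of at least 2, 98.3% had a lower r with Clu than Havcr1 did, 99.5% a lower r than Lcn2 and 86.1% a lower r than Spp1. From the side of Havcr1, 91.5% had a lower r with it than Lcn2 did and 83.0% a lower r than Spp1. From the side of Lcn2, 88.9% had a lower r with it than Spp1 did. The shares were higher from the side of Spp1. There, 94.9% had a lower r with it than Havcr1 did, 96.6% a lower r than Lcn2 and 96.4% a lower r than Clu. An r over 0.9 was seen with 3.73% of these models for Clu, 3.54% for Havcr1, 2.76% for Lcn2 and 0.768% for Spp1. By the rule for likeness, the model closest to Spp1 was ENSRNOG00000002895 (r = 0.999 over the 6 libraries). The model closest to Clu was ENSRNOG00000029726 (r = 0.998). Both have no name in the tables.

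The length trend of the libraries moves with part of this pattern. Dahl SS replicate 1, low in every member, had the highest correlation with length (0.369), and mutant replicate 1, among the highest in every member, the lowest (-0.373). Mutant replicate 2, low in every member, had 0.0354, near the middle. Removing each library's fitted trend hardly moved log2 CPM of Havcr1, the longest of the 4 models. It went from 1.64 to 1.62 in Dahl SS replicate 1 and from 3.05 to 3.07 in mutant replicate 1. Lcn2, the shortest model, went from 2.05 to 2.21 and from 2.68 to 2.55 in these libraries. Spp1 and Clu moved in the same direction as Lcn2, by less. The part of length in the shared order was not tested. With each library's fitted length trend removed, the order within both groups was still the same in 4 of 4 members (in 7.98% of tested models), and the low and high pairs over all libraries were the same in 3 of 4 (in 3.17% of tested models). The r of Lcn2 and Clu was then 0.911 (exact permutation p = 0.0139, adjusted 0.0417) and that of Havcr1 and Clu 0.929 (exact permutation p = 0.00833, adjusted 0.0417). Spp1 had 0.594 with Havcr1, 0.817 with Lcn2 and 0.713 with Clu, and the r of Havcr1 and Lcn2 was 0.721. By rank, no pair was below an adjusted p of 0.05 once the trend was removed. The rank correlation was still 0.943 for Clu with Lcn2 and with Havcr1 (exact permutation p = 0.0167, adjusted 0.05) and 0.886 for Havcr1 and Lcn2 (exact permutation p = 0.0333, adjusted 0.0667). The pairs with Spp1 had a rank correlation of 0.657 with Havcr1 (exact permutation p adjusted to 0.263), 0.6 with Lcn2 (adjusted exact permutation p = 0.290) and 0.486 with Clu (adjusted exact permutation p = 0.356). Total counts were 22854561 in Dahl SS replicate 1 and 20834064 in mutant replicate 2, the low pair, and 14497217 in Dahl SS replicate 2 and 21958869 in mutant replicate 1, the high pair. The part of depth in the shared order was not tested.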

How the data were processed

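Kidney libraries were prepared from 3 ug of RNA with NEBNext Ultra reagents, per the labels' protocols. The authors deposited raw counts for each gene model and FPKM values. Tools named in the submitters' processing notes are HISAT2 2.1.0, HTSeq 0.6.1 and CASAVA 1.8, with the build Rnor 5.0, without roles. The use of strand in counting and the treatment of multi-mapping reads were not given in the sources used here, and reads of overlapping models or of a copy such as the pseudogene Havcr1-ps1, which RefSeq lists, may be mixed with those of a member. Model lengths were taken as count over FPKM, and were whole to within 1e-04 bases. The deposited FPKM interval summary was left out.

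Counts were tested with edgeR 4.0.16 (R 4.3.3) over all models, with filterByExpr (minimum count 10, minimum total 15), TMM scaling, the quasi-likelihood F test on group and Benjamini-Hochberg adjustment over 16324 models (threshold 0.05). The test was tried on simulated data with known changes. The outcome of that trial is not given here and is not used as support. Standard errors are the log2 fold change over the square root of F. Single values were tested by exact permutation over libraries (two-sided), which cannot go below 0.1 with 3 against 3. Correlations used log2 CPM with a prior count of 2. Total counts were 13427302 to 22854561 per library, and Poisson limits cover counting error only. The length trend was a loess fit (span 0.5) of each library's log2 deviation on log10 length.

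Alternatives were DESeq2 1.42.0, limma-voom (limma 3.58.1), other scalings and filters, the replicate block, libraries left out, the length trend removed, and limma on log2 FPKM. The genes, lists, motifs and alternatives were chosen with earlier results of these data known. The form of the NF-kB motif was settled after matches to 2 other forms had been seen. The genes named are the 4 members and, as most alike in pattern, 1 identifier each for the 2 most abundant members. Planned lists of other injury genes and cell type markers are given by symbol and were not analysed here.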

Additional observations from a re-analysis of the deposited data

How the results depend on the processing

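None of the 4 members passed the test under any of 20 alternatives each, with adjusted p-values from 0.309 to 0.999. Spp1 was lower in mutants in 20 of 20 (log2 fold change -0.43 to -0.022), Lcn2 higher in 18 of 20 (-0.17 to 0.28), Clu higher in 17 of 20 (-0.15 to 0.16), and Havcr1 lower in 13 of 20 (-0.67 to 0.26). The alternatives refit the same libraries or fewer of them, so these counts of direction are not independent support for a difference. Havcr1 changed sign with limma-voom (0.16), the replicate block (0.026) and log2(FPKM + 0.1) (0.019). Leaving out 1 library gave -0.35 to 0.26 for Havcr1, -0.055 to 0.28 for Lcn2, -0.33 to -0.022 for Spp1 and -0.048 to 0.16 for Clu. Without replicate 1 of both groups, Lcn2 (-0.17) and Clu (-0.15) changed sign. With the length trend removed and all libraries kept, Lcn2 (0.014) and Clu (0.023) did not. The count of changed models over the table was 2, and it was 105 with DESeq2, 1 with limma-voom and with each of 3 limma settings on log2 FPKM, 22 without replicate 1 of both groups, and 1 to 13 with 1 library left out (Dahl SS replicate 1 left out gave 13, Dahl SS replicate 2 gave 1 and mutant replicate 3 gave 6). The cause was not tested. Pairs of members that passed by Pearson's r numbered 2, also with a prior count of 0.5 and with the length trend removed, and 1 on log2(FPKM + 1), where Havcr1 and Clu had an r of 0.916 (exact permutation p adjusted to 0.0667). With 1 library left out, an alternative chosen after seeing the data, 0 pairs passed in each case, with adjusted exact permutation p-values of 0.0667 to 0.1 for the 2 pairs. With 5 libraries the exact permutation p cannot go below 0.0167. Without Dahl SS replicate 1, Lcn2 and Clu had that p at an r of 0.982, and it was adjusted to 0.1. A pair can hardly pass with so few libraries, so the count of 0 does not show that the correlations weakened. Libraries of the same number showed no shared deviation (correlations -0.274, -0.144 and -0.00176) and are not taken as pairs, and with the replicate block 2 models were called and log2 fold changes were 0.026 for Havcr1, 0.11 for Lcn2, -0.20 for Spp1 and 0.059 for Clu. Havcr1 and Lcn2 had 69 to 174 reads in a library.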
